A study of Mus musculus with 24 samples.

Results

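The comparison described here set skeletal progenitor cells of the spine against the same sorted population of the limb. RNA of vertebral GFP+ EMB+ cells (4 libraries) was compared with RNA of long bone EMB+ cells (4 libraries), and the genes described were all protein-coding genes whose FPKM reached 1 in at least 4 of these 8 libraries. FPKM counts sequenced fragments scaled for the length of the gene and for the number of mapped fragments, so it is a level that can be compared between genes. This rule kept 10845 of the 21948 genes in the deposited table, and 9634 of them reached an FPKM of 1 in all 8 libraries. At the border, the 368 genes that reached it in exactly 4 libraries had a median highest FPKM of 2.17, and the 253 genes that reached it in exactly 3 had 1.64.

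Both groups came from male mice on postnatal day 10 whose genotype label reads WT, while the series' design text names a zic1-cre state for each population. The vertebral cells were taken from the spine and are zic1-cre positive and GFP+. The long bone cells were taken from femur and tibia and are zic1-cre negative and GFP-. The allele that carries GFP is not given in the sources used here. Cells of both groups were sorted as negative for the blood markers CD45 and Ter119, the endothelial marker CD31, and Thy1, 6C3 and CD105, and as positive for CD200 and EMB. EMB is embigin, a surface glycoprotein of the immunoglobulin superfamily. Site and GFP state therefore change together, and so do the running codes in the sample titles, so these 3 cannot be told apart in this comparison. The titles call the libraries biological replicates, but separate animals are not stated. The vertebral GFP+ EMB+ titles carry different replicate numbers, whereas all 4 long bone EMB+ titles carry the same number. Whether these 4 long bone libraries are independent replicates is therefore not known, although every test counts them as 4. The p-values thus rest on the spread among the libraries and no more. A further 4 groups of 4 libraries were fitted in the same model, and 3 of them (vertebral GFP- EMB+, and the EMB- cells of vertebral GFP+ and long bone origin) are set beside the results below.

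The skeleton of the trunk and that of the limbs form from different parts of the embryo. Vertebrae arise from the sclerotome of the somites, where Pax1, Pax9, Nkx3-2 and Uncx act, whereas limb bones arise from lateral plate mesoderm, in which Tbx4, Pitx1, Prrx1 and Shox2 act. Hox genes give both axes their positional values, with early-numbered paralogs used towards the head and late-numbered paralogs used towards the tail and in the outer segments of the limb. At both sites most bones first form as cartilage, whose growth plates are paced by the Indian hedgehog and PTHrP signals and later replaced by bone.

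Libraries of a group resembled each other more than those of the other group. Pearson's r of log2(FPKM + 1) across genes was 0.984 to 0.989 between vertebral libraries, 0.978 to 0.988 between long bone libraries and 0.929 to 0.959 across the groups. Genes that reached an FPKM of 1 numbered 10492 to 10929 per library, and the number of reads behind a value is unknown. The long bone libraries fell into pairs, 1 with 2 and 3 with 4, which differed in Col1a1 and Col1a2, the type I collagen chains of bone and tendon. These 2 genes made up 7.39%, 8.73%, 3.76% and 3.77% of the summed FPKM in long bone libraries 1 to 4, against 1.33%, 0.967%, 1.12% and 1.21% in the vertebral libraries. Results were therefore recomputed with only long bone libraries 1 and 2 or only 3 and 4, an alternative chosen after seeing the data. They are given below where the call of a named gene changed or a list count moved by more than 1.5 times and by at least 2 genes.

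In limma on log2(FPKM + 1), with Benjamini-Hochberg adjustment at 0.05, 2531 of 11768 genes tested differed between vertebral GFP+ and long bone EMB+ cells (21.5%). Higher in vertebral cells were 1017 genes (8.64%) and lower were 1514 (12.9%). Of the 10845 genes described here, 2375 were called (21.9%), 987 higher and 1388 lower. A log2 change of 1 or more was reached by 248 of the higher and 553 of the lower genes. In 3309 of the 11768 genes tested (28.1%) the 4 vertebral and the 4 long bone values did not overlap, and 3108 of these were among the genes described here. Counts over gene lists below are to be read against the shares of 8.64% and 12.9%. A small set separated the sites almost by presence: 67 genes (0.618%) reached an FPKM of 1 in all 4 vertebral and no long bone library, and 1.53% of the genes described did so in reverse. Genes of this kind entered through 1 group only, so their difference is set by the rule and is described without weight on its count. In the gene lists below other than the Hox, limb and sclerotome lists, at most 2 genes of a list were of this kind. Named genes of this kind outside the Hox, limb and sclerotome lists included Fst, Kitl, Notch1, Rspo4, Stc1, Serpina1b, Serpina1d, Mab21l2 and Rpl39l. The rule fixed their direction. The balance of directions depended on the scaling, since quantile normalization gave 1328 genes higher and 1301 lower. With only long bone libraries 3 and 4, 520 genes were higher. In these sorted bulk samples, fewer cells of a type and less RNA per cell cannot be told apart.

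**Figure D1:**
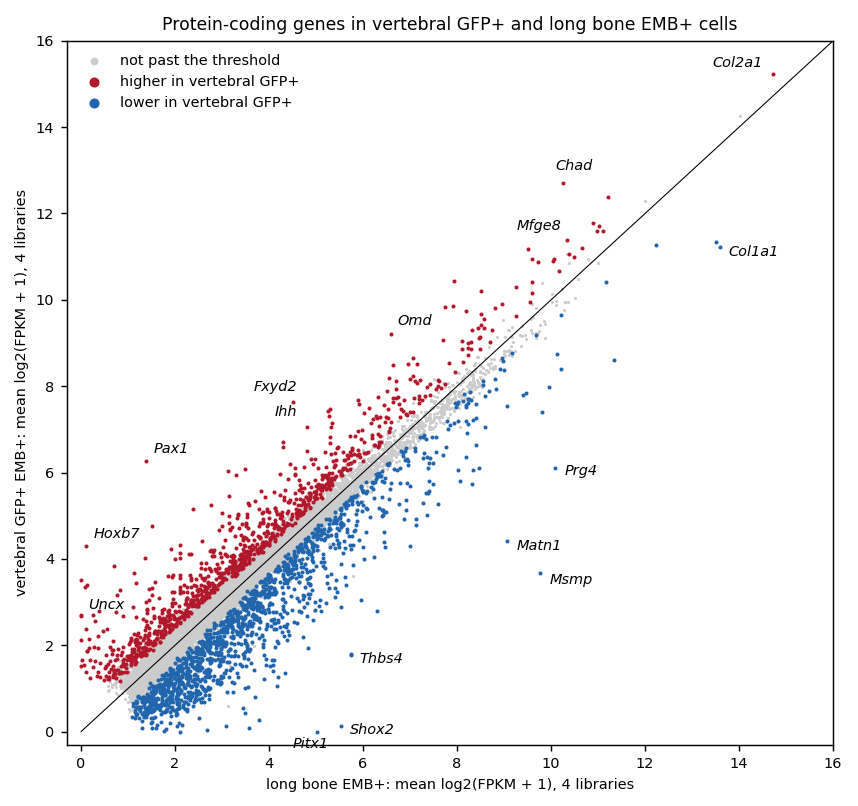
Mean log2(FPKM + 1) over 4 long bone EMB+ libraries (x axis) and 4 vertebral GFP+ EMB+ libraries (y axis) for the 10845 genes described; red and blue points are the 987 genes higher and the 1388 genes lower in vertebral cells at a limma adjusted p under 0.05. Pax1 and Hoxb7 lie far above the line of equal level, Msmp, Shox2, Pitx1 and Matn1 far below it, and Col2a1, the most abundant gene labelled, lies close to it.

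The genes of the sort and of the labelled cell type came first. Zic1, the zinc finger gene whose Cre marks the vertebral cells, was at 1.51, 2.39, 1.62 and 1.97 FPKM in vertebral libraries 1 to 4, while each long bone library listed it at 0 (limma adjusted p = 5e-09). Emb was at 48.7, 56.5, 48.2 and 46.6 FPKM in the vertebral and 32.1, 30.1, 40.4 and 36.1 in the long bone libraries, a difference of log2 change 0.52, SE 0.12, limma adjusted p = 0.0018. Every vertebral value of Emb lay above every long bone value, although all cells had been sorted as EMB+. With only long bone libraries 3 and 4, the change of Emb was log2 change 0.38, limma adjusted p = 0.085. Cd200 did not pass the test, with a mean of 142 ± 15.8 (SD, n = 4) FPKM in vertebral and 172.9 ± 26.6 in long bone libraries (log2 change -0.28, SE 0.21, limma adjusted p = 0.41). Of the markers sorted against, these 5 genes were low in both groups: the highest value in any of the 8 libraries was 0.419 FPKM for Ptprc (CD45), 1.06 for Pecam1 (CD31), 0.0274 for Thy1, 1.30 for Enpep (6C3) and 1.74 for Eng (CD105).

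The general cartilage genes Sox9, Col2a1 and Acan were abundant at both sites, and each rose in vertebral cells. Genes of resting zone chondrocytes leaned the other way: of 15 described, 3 were higher and 7 were lower (median log2 change -0.33). Their summed level was 3521 to 4255 FPKM in vertebral and 3955 to 5642 in long bone libraries, so the ranges overlapped. Sox9, the master regulator of cartilage, was at 539, 614, 491 and 469 FPKM in vertebral and 229.9, 217, 339 and 331 in long bone libraries (log2 change 0.94, SE 0.16, limma adjusted p = 5.6e-05). The vertebral range lies above the long bone range with no overlap. Pdgfra, a receptor carried by many mesenchymal progenitors, was at 10.6, 11.3, 11.2 and 9.50 FPKM in vertebral and 22.98, 29.00, 25.4 and 31.7 in long bone libraries and fell by 1.27 on the log2 scale (limma adjusted p = 0.00026).

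Transcription factor genes that give the skeleton its position held several of the large contrasts. Pax1 and Uncx stood for the sclerotome, and Shox2 and Tbx4 for the limb. Chad, a gene of cartilage described further on, is shown with them as the cartilage matrix gene with the largest rise. Of the genes described, 8411 matched a RefSeq promoter window (GRCm38.p6), which runs from 250 bases before the RefSeq start of a gene to 50 after it. For Pax1 and Uncx that start differs from the start in the deposited table. Their windows lie within the gene as the deposited table places it. The windows of these 5 genes are shown because their levels separate the sites with no overlap. Each is printed 5′ to 3′ on the strand of its gene. Capitals mark TATAAA or TAATTA, searched on both strands, so that TATAAA on the opposite strand appears as TTTATA. The first is the core of the TATA box, and the second is a core bound by many homeodomain proteins.
Pax1: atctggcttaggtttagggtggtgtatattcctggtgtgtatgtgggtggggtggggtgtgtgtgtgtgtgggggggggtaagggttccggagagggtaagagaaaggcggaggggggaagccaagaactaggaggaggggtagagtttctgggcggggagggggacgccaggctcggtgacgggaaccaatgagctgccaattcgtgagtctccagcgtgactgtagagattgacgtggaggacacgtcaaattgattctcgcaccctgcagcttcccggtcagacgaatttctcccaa
Uncx: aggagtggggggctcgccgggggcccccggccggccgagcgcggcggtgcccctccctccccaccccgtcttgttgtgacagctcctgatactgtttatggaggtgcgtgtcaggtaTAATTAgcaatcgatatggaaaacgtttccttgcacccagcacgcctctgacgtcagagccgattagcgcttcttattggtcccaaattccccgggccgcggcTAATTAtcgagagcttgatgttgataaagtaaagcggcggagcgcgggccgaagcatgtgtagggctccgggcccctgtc
Shox2: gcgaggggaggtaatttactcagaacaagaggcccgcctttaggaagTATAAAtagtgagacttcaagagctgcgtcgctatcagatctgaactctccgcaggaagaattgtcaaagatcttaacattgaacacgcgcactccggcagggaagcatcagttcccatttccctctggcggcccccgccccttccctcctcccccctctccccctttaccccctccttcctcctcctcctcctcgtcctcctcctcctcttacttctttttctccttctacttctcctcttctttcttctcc
Tbx4: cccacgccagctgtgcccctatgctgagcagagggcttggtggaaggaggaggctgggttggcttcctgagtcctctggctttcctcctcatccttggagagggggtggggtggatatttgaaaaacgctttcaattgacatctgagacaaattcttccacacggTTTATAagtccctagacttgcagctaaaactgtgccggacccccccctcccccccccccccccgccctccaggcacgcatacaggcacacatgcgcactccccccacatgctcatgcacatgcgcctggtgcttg
Chad: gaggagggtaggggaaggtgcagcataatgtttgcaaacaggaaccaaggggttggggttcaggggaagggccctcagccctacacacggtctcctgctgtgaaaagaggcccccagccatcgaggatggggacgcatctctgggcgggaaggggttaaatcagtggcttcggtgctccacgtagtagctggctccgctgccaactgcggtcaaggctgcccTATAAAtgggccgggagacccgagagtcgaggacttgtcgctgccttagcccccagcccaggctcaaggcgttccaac
The windows lie at chr2:147364744-147365043 for Pax1 on the + strand, chr5:139543648-139543947 for Uncx on the + strand, chr3:66981722-66982021 for Shox2 on the - strand, chr11:85896515-85896814 for Tbx4 on the + strand and chr11:94564797-94565096 for Chad on the + strand. Uncx holds TAATTA at positions 118 and 221 of its window, counted from 1 at the 5′ end, and 26 CpG dinucleotides. Shox2 holds TATAAA at position 48, Tbx4 holds it on the opposite strand, Chad holds it at 223, and Pax1 holds neither run of letters. Over all 32851 windows of this length, 13.6% held TATAAA and 5.29% held TAATTA on either strand, and the median window had 7 CpG. A match describes letters only.

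Pax1, a paired box gene needed to form vertebral bodies, lies at chr2:147361925-147393295 (GRCm38, coordinates of the deposited table). It was at 77.4, 79.5, 70.2 and 78.7 FPKM in the vertebral libraries and 1.11, 1.33, 2.098 and 2.03 in the long bone libraries. The vertebral values were close together and lay far above all long bone values, a difference of log2 change 4.89, SE 0.15, limma adjusted p = 3.7e-18. Uncx, a homeobox gene of the caudal half-somite at chr5:139543494-139548179, was at 7.34, 5.51, 4.41 and 4.64 FPKM in the vertebral libraries and listed at 0 in every long bone library (limma adjusted p = 1.1e-13). Zic4, a neighbour of Zic1 from the same zinc finger family, was at 5.95, 4.13, 6.42 and 5.82 FPKM and was likewise listed at 0 in long bone (limma adjusted p = 6.7e-14). Nkx3-2, a homeobox gene that acts below Pax1 in the sclerotome and restrains cartilage maturation, was expressed at both sites, at 44.1, 55.7, 46.6 and 44.05 FPKM in vertebral and 16.5, 20.3, 21.7 and 18.6 in long bone libraries (log2 change 1.26, SE 0.12, limma adjusted p = 2.5e-08). In long bone, Uncx was thus at a listed 0, Pax1 was at 2.098 FPKM or less, and Nkx3-2 was at a moderate level in every library. Of the 15 sclerotome and somite transcription factor genes described, 12 were higher in vertebral cells and 1 was lower. However, 6 of the higher genes (Pax9, Uncx, Foxf2, Zic1, Zic4 and Tbx1) reached an FPKM of 1 in no long bone library. The rule fixed their direction, and nothing is read from the count. Of the 9 genes that reached it at both sites, 6 were higher and 1 was lower. Genes that rose included Foxf2 (log2 change 1.73, SE 0.16, limma adjusted p = 4.9e-09), Nkx6-1 (log2 change 1.20, SE 0.15, limma adjusted p = 6e-07) and Pax9 (log2 change 1.22, SE 0.15, limma adjusted p = 7e-07). Tbx18, a T-box gene of the cranial half-somite that is also expressed in limb mesenchyme, was the 1 that fell, from a mean of 5.11 ± 1.36 FPKM in long bone to 1.02 ± 0.508 in vertebral cells (limma adjusted p = 1.5e-06).

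Among limb transcription factor genes, those named first were lower in vertebral cells. Shox2, a homeobox gene of the upper limb segments at chr3:66971727-66981771, was at 0, 0.174, 0.110 and 0.0775 FPKM in the vertebral and 45.1, 46.5, 48.6 and 41.6 in the long bone libraries (log2 change -5.41, SE 0.15, limma adjusted p = 4.7e-19). Pitx1, which gives the hindlimb its identity and lies at chr13:55825051-55836192, was listed at 0 in all 4 vertebral libraries and was at 29.9, 23.6, 37.9 and 37.3 FPKM in the long bone libraries (limma adjusted p = 1.9e-16). Both genes were thus at or near 0 in vertebral cells. Tbx4, the T-box gene of the hindlimb bud, was at 0.142, 0.184, 0.0327 and 0 FPKM against 5.65, 5.88, 9.16 and 10.1 (log2 change -2.96, SE 0.17, limma adjusted p = 9.9e-13). Its forelimb counterpart Tbx5 was lower in level, at 0, 0.0273, 0 and 0.0221 FPKM against 1.81, 1.38, 3.53 and 3.27 (log2 change -1.74, SE 0.16, limma adjusted p = 5.6e-09). Femur and tibia are hindlimb bones, and Tbx4 was above Tbx5 in every long bone library. Tbx15, a T-box gene of limb and shoulder girdle development, was at 1.32, 1.08, 2.47 and 1.60 FPKM in vertebral and 14.7, 14.2, 27.5 and 23.5 in long bone libraries (log2 change -2.98, SE 0.25, limma adjusted p = 2.2e-09). Mab21l2, a gene of limb and eye development, was at 0, 0.0541, 0 and 0.162 FPKM in vertebral and 9.05, 12.4, 10.6 and 11.6 in long bone libraries (log2 change -3.49, SE 0.12, limma adjusted p = 2.2e-17). It shares 36% of its exon bases with Lrba on the opposite strand, and the library kits do not mark strand. Prrx1, the general marker of limb mesenchyme, was at 8.60, 7.29, 8.35 and 7.95 FPKM in vertebral and 12.4, 15.1, 14.6 and 13.9 in long bone libraries and differed far less than these (log2 change -0.72, SE 0.16, limma adjusted p = 0.0016). Of the 22 limb transcription factor genes described, 14 were lower in vertebral cells and 2 were higher. Here too the rule fixed the direction of 8. An FPKM of 1 was reached in long bone libraries only by 7, among them Pitx1, Tbx4, Tbx5 and Shox2, and in vertebral libraries only by En1. Of the other 14 genes, 7 were lower and 1 was higher. The 2 higher genes of the list were En1, a homeobox gene of ventral limb ectoderm that is also expressed in the somites, at 2.00, 2.05, 2.46 and 2.07 FPKM against 0, 0, 0.0301 and 0 (log2 change 1.64, SE 0.13, limma adjusted p = 7.1e-10), and Prrx2. The call of Prrx2 (log2 change 0.62, SE 0.20, limma adjusted p = 0.029) was lost at a pseudocount of 5 and without vertebral library 2 or 3 or long bone library 1, 3 or 4 (log2 change 0.50 to 0.63 without them). It was also lost with only long bone libraries 1 and 2 (log2 change 0.56, limma adjusted p = 0.15) or only 3 and 4 (log2 change 0.68, limma adjusted p = 0.088).

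**Figure D2:**
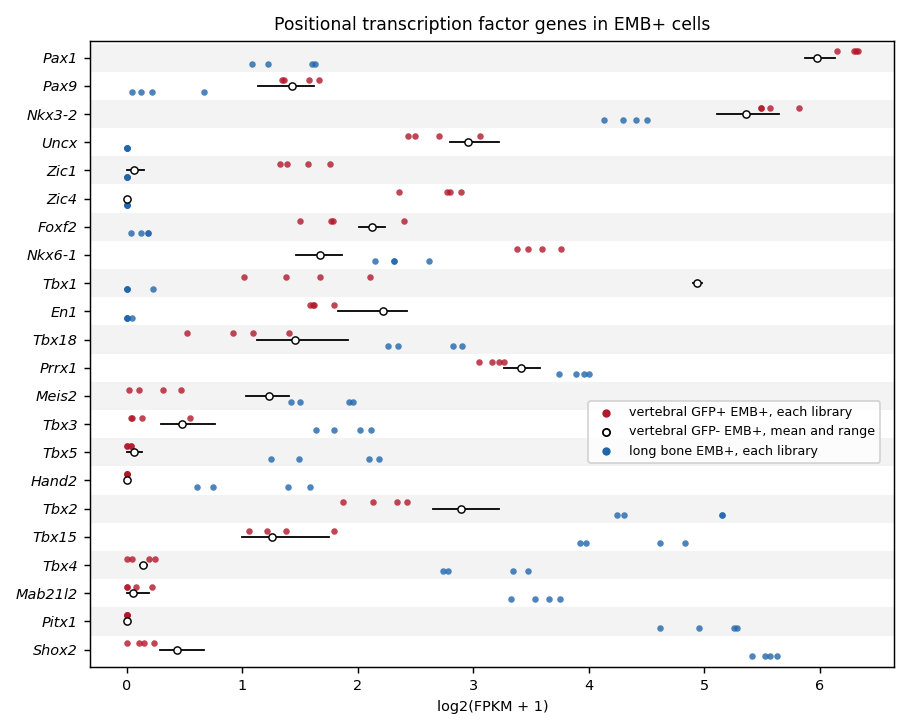
Level on the log2(FPKM + 1) scale of 22 positional transcription factor genes in each vertebral GFP+ EMB+ library (red), each long bone EMB+ library (blue) and, as mean with range, the vertebral GFP- EMB+ libraries (open circles and lines). From Pax1 to En1 the red points lie to the right of the blue, from Tbx18 down to Shox2 to the left; Zic1 and Zic4 are near 0 in the GFP- cells, and Tbx1 is highest there.

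Positional genes were also measured in the vertebral GFP- EMB+ cells, which share the site but not the GFP state. That comparison uses the same long bone libraries as its reference, so its values stand side by side with the others and are not independent of them. Mean levels in GFP- vertebral cells were 61.9 ± 5.32 FPKM for Pax1, 6.73 ± 1.12 for Uncx, 40.1 ± 6.49 for Nkx3-2, 0.350 ± 0.165 for Shox2 and 0.103 ± 0.0228 for Tbx4, and Pitx1 was listed at 0, all nearer to the GFP+ vertebral than to the long bone level. Against long bone, 2243 of 11768 genes differed in the GFP- cells (19.1%), and between GFP+ and GFP- EMB+ cells of the vertebrae 247 differed (2.1%). Zic4 and Zic1 were at or near 0 in the GFP- cells, with a highest library of 2.8e-08 FPKM for Zic4 and 0.108 for Zic1. Nkx6-1 was at a mean of 10.8 ± 1.34 FPKM in GFP+ vertebral, 2.18 ± 0.474 in GFP- vertebral and 4.12 ± 0.721 in long bone cells. It was thus above long bone in the GFP+ cells and below it in the GFP- cells (log2 change -0.69, limma adjusted p = 0.00099), and GFP+ and GFP- cells differed by 1.89 (limma adjusted p = 1.1e-09). Tbx1, a T-box gene of pharyngeal and head mesoderm, was at 1.60, 2.18, 1.02 and 3.30 FPKM in the GFP+ libraries, but at a mean of 29.7 ± 0.754 FPKM in the GFP- cells (log2 difference of GFP+ minus GFP- -3.40, limma adjusted p = 1.2e-12) and at most 0.167 in long bone. Titles and cell type labels disagree for the 4 GFP- EMB+ libraries, which were grouped by the cell type label.

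Hox genes changed sign along the Hoxa and Hoxc clusters. In the Hoxa cluster all 9 genes described were called. Hoxa2 to Hoxa7 (6 genes) were higher in vertebral cells, and Hoxa9, Hoxa10 and Hoxa11 were lower. Hoxa5 was at 10.5, 8.70, 7.63 and 8.77 FPKM in vertebral and 2.01, 1.89, 1.58 and 1.52 in long bone libraries (log2 change 1.85, SE 0.19, limma adjusted p = 6e-08). Hoxa10, used in the upper segment of the limb and in lumbar vertebrae, was at 9.19, 9.27, 13.8 and 9.90 FPKM in vertebral and 41.5, 40.4, 46.01 and 41.2 in long bone libraries (log2 change -1.92, SE 0.17, limma adjusted p = 4e-09). Hoxa11, used in the middle limb segment, was at 1.63, 1.85, 2.40 and 1.10 FPKM against 10.99, 10.96, 13.8 and 11.3 (log2 change -2.24, SE 0.21, limma adjusted p = 7.1e-09). No vertebral value of these 3 genes overlapped a long bone value. In the Hoxb cluster the 5 genes described, Hoxb2, Hoxb5, Hoxb6, Hoxb7 and Hoxb9, were all higher in vertebral cells. An FPKM of 1 was reached in no long bone library by 3 of the Hoxa genes and by these Hoxb genes apart from Hoxb2. The rule thus fixed their direction. Hoxb7, at chr11:96286623-96290162, was at 20.6, 20.2, 17.03 and 17.7 FPKM in the vertebral and 0.0421, 0.285, 0 and 0 in the long bone libraries (log2 change 4.20, SE 0.15, limma adjusted p = 1.9e-16). Hoxb6 was at 12.2, 9.87, 7.47 and 7.96 FPKM against 0.167, 0, 0 and 0.0830 (log2 change 3.27, SE 0.17, limma adjusted p = 3.5e-13). The cluster was near 0 in long bone apart from Hoxb2, which had a mean of 9.30 ± 4.21 FPKM there against 22.1 ± 1.41 in vertebral cells.

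In the Hoxc cluster 4 of the 6 genes described, Hoxc4, Hoxc5, Hoxc6 and Hoxc8, were higher in vertebral cells and Hoxc10 was lower. With only long bone libraries 3 and 4 the call of Hoxc5 was lost (log2 change 0.82, limma adjusted p = 0.066). Hoxc8 was at 17.6, 18.7, 17.8 and 16.8 FPKM in vertebral and 3.33, 2.97, 1.98 and 2.95 in long bone libraries (log2 change 2.31, SE 0.14, limma adjusted p = 8.1e-12). Hoxc10 was at 3.16, 5.02, 4.82 and 5.61 against 10.6, 9.32, 12.2 and 12.3 (log2 change -1.12, SE 0.19, limma adjusted p = 6e-05). Between them in number, Hoxc9 did not pass the test (log2 change -0.42, SE 0.18, limma adjusted p = 0.1). In the Hoxd cluster, Hoxd8 (log2 change 0.15, SE 0.27, limma adjusted p = 0.77) and Hoxd9 (log2 change 0.30, SE 0.22, limma adjusted p = 0.38) did not pass, and the other members of the list were below the level needed. Hoxd8 passed with only long bone libraries 1 and 2 (log2 change 0.76, limma adjusted p = 0.047). Several Hox genes overlap neighbours on the opposite strand, and reads from the 2 strands cannot be told apart. These neighbours share 35.00% of the exon bases of Hoxa11, 27.3% of those of Hoxb2 and 20.4% of those of Hoxa7. The level of Hoxb2 in long bone carries this limit.

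**Figure D3:**
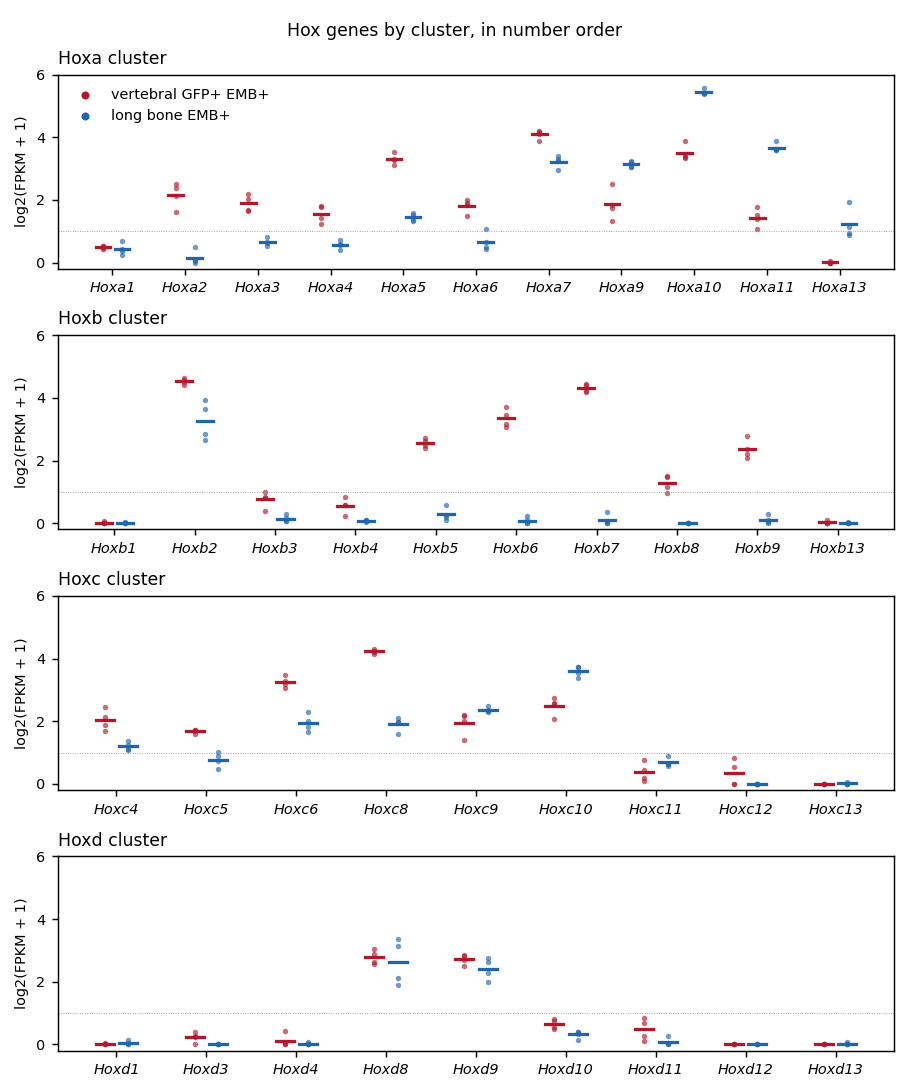
Level on the log2(FPKM + 1) scale of Hox genes in number order within each cluster, in 4 vertebral GFP+ EMB+ (red) and 4 long bone EMB+ libraries (blue), with bars at the mean of the log values and a dotted line at an FPKM of 1. Red lies above blue up to Hoxa7 and Hoxc8 and in the Hoxb genes described, and blue lies above red for Hoxa9 to Hoxa11 and Hoxc10.

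Several of the largest changes lay outside these families. Serpina1b and Serpina1d encode forms of the protease inhibitor alpha-1 antitrypsin. Serpina1b was at 8.62, 13.7, 12.3 and 8.04 FPKM in vertebral libraries, with every long bone library at a listed 0, and Serpina1d was at 7.50, 12.9, 9.84 and 8.38 against 0.0530, 0.0720, 0.223 and 0. The genes of this family are nearly identical, so the split of reads between them is uncertain. Both were higher in GFP+ than in GFP- vertebral cells, where the means were 4.22 ± 2.46 and 2.52 ± 0.465 FPKM (limma adjusted p = 0.0054 and 1.4e-05). Slc6a12, a transporter of betaine and GABA, was at 27.4, 28.4, 27.4 and 21.6 FPKM in vertebral and 1.84, 1.32, 2.31 and 1.97 in long bone libraries (log2 change 3.25, SE 0.19, limma adjusted p = 1.5e-12). Slc2a5, the fructose transporter GLUT5, was at 15.4, 14.3, 10.7 and 13.4 FPKM in vertebral and 0.602, 0.461, 0.338 and 1.25 in long bone libraries (log2 change 3.14, SE 0.20, limma adjusted p = 9.4e-12). Fxyd2, a modulatory subunit of the sodium-potassium pump, was at 188.7, 169.3, 219 and 220.2 FPKM in vertebral and 25.5, 14.3, 25.8 and 23.6 in long bone libraries (log2 change 3.13, SE 0.35, limma adjusted p = 3e-07). Each of these 3 genes was higher in every vertebral than in any long bone library, which the rule that named them required. Tnnt3, fast skeletal muscle troponin T, was at 33.8, 34.9, 36.6 and 34.1 FPKM in vertebral and 3.30, 3.62, 4.85 and 5.20 in long bone libraries (log2 change 2.79, SE 0.25, limma adjusted p = 5.6e-09), and it was the only called gene among the 3 skeletal muscle genes that reached the level needed. F5, coagulation factor V, was at 16.04, 19.6, 14.9 and 11.2 FPKM in vertebral libraries, 0.978, 2.39, 1.53 and 1.51 in long bone libraries and a mean of 5.72 ± 1.56 in GFP- vertebral cells (log2 change 2.66, SE 0.19, limma adjusted p = 7.5e-11 against long bone). Syt8, a synaptotagmin, rose from a mean of 8.32 ± 3.29 FPKM in long bone to 65.1 ± 9.32 in vertebral cells (limma adjusted p = 9.7e-09).

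In the other direction Msmp, which encodes a small secreted microseminoprotein, showed the largest log2 change of all genes named. It was at 8.34, 11.5, 12.1 and 16.2 FPKM in the vertebral and 433, 1076, 1176 and 1041 in the long bone libraries (log2 change -6.10, SE 0.33, limma adjusted p = 1.4e-12). All exon bases of Msmp lie within Rgp1 on the opposite strand. Rgp1, chosen after its values were seen, was at 2.93, 1.01, 3.42 and 3.31 FPKM in vertebral and 3.45, 5.05, 7.44 and 5.28 in long bone libraries (log2 change -0.81, SE 0.25, limma adjusted p = 0.019), far below Msmp in every long bone library. Its call was lost without vertebral library 2 (log2 change -0.54), without long bone library 3 (-0.66) and with only long bone libraries 1 and 2 (log2 change -0.57, limma adjusted p = 0.21). Msmp had a mean of 7.92 ± 2.24 FPKM in GFP- vertebral EMB+ cells and 2.38 ± 1.45 in long bone EMB- cells, so among the groups described here its high level was found in the long bone EMB+ libraries. Rpl39l, a paralog of a ribosomal protein gene, was at 0.283, 0.446, 0 and 0.112 FPKM in vertebral and 16.8, 12.2, 9.27 and 13.7 in long bone libraries (log2 change -3.52, SE 0.18, limma adjusted p = 3.2e-13). Gal, the neuropeptide galanin, was at 1.02, 0.965, 1.31 and 1.08 FPKM in vertebral and 24.4, 29.2, 9.17 and 12.5 in long bone libraries (log2 change -3.11, SE 0.32, limma adjusted p = 4.7e-08). The vertebral values of Gal lay close together while the long bone values spread widely. Stc1, the hormone stanniocalcin, was at 0.505, 0.453, 0.183 and 0.286 FPKM in vertebral and 5.01, 14.01, 10.5 and 13.96 in long bone libraries (log2 change -3.05, SE 0.19, limma adjusted p = 6.9e-12).

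Cartilage matrix genes were higher in vertebral cells. Of 21 described, 16 were higher and 2 were lower, with a median log2 change of 0.63 and a summed level of 73938 to 78673 FPKM in vertebral against 38470.0 to 55872 in long bone libraries. Chad, chondroadherin, a leucine-rich cartilage protein that binds cells, was at 6682, 8877, 5977 and 5672 FPKM in the vertebral and 1095, 1173, 1345 and 1277 in the long bone libraries (log2 change 2.46, SE 0.16, limma adjusted p = 1.2e-11). Matn3, a matrilin of the growth plate, was at 2239, 2538, 2338 and 2184 FPKM in vertebral and 650.0, 614, 861 and 837 in long bone libraries (log2 change 1.66, SE 0.21, limma adjusted p = 9.2e-07). Comp, cartilage oligomeric matrix protein, was at 4939, 5520.1, 5495 and 5394 FPKM in vertebral and 2040.2, 2037, 2747 and 2751 in long bone libraries (log2 change 1.17, SE 0.15, limma adjusted p = 1.3e-06). The vertebral values of all 3 lay above the long bone values. Acan, the main cartilage proteoglycan, was at 646, 621, 629 and 634 FPKM in vertebral and 371, 345, 516 and 501 in long bone libraries (log2 change 0.57, SE 0.13, limma adjusted p = 0.0024). Col2a1, type II collagen, was at 37204, 38167, 39312 and 39443 against 25483, 21746, 32064 and 30574 (log2 change 0.50, SE 0.13, limma adjusted p = 0.0052). These 2 differences were small and less firm: with only long bone libraries 3 and 4 the calls were lost for Acan (log2 change 0.31, limma adjusted p = 0.16) and Col2a1 (log2 change 0.30, limma adjusted p = 0.15). With those 2 long bone libraries, 8 of the 21 genes were higher, and under quantile normalization 11 were. Col2a1 was the most abundant gene in all 8 libraries, so quantile normalization sets it to 1 value and gives no test of it.

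Matn1, cartilage matrix protein, went strongly against its group. It lies at chr4:130944385-130955475 and was at 16.6, 18.2, 23.1 and 23.98 FPKM in the vertebral and 486, 429, 629 and 622 in the long bone libraries, a difference of log2 change -4.65, SE 0.19, limma adjusted p = 1.5e-15. GFP- vertebral EMB+ cells had a mean of 40.1 ± 4.29 FPKM, above the GFP+ cells (log2 difference of GFP+ minus GFP- -0.95, limma adjusted p = 0.0041) and far below long bone. Omd, osteomodulin, a small leucine-rich protein of mineralized tissue, was at 594, 602, 565 and 614 FPKM in vertebral and 78.1, 94.6, 111 and 99.2 in long bone libraries (log2 change 2.63, SE 0.17, limma adjusted p = 1.2e-11).

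Of 14 chondrocyte transcription factor genes described, 9 were higher in vertebral cells, among them Sox9, and 0 were lower. The count includes Hoxa2, which reached an FPKM of 1 in no long bone library. Of the other 13 genes 8 were higher. Foxa2, a forkhead factor of chondrocyte hypertrophy that is also a notochord gene, was at 14.6, 19.8, 16.6 and 10.1 FPKM in vertebral and 2.72, 1.95, 3.38 and 4.25 in long bone libraries (log2 change 1.99, SE 0.24, limma adjusted p = 6.1e-07). Foxa3 from the same family was at 35.3, 42.4, 36.5 and 34.7 FPKM against 10.02, 8.89, 12.96 and 12.3 (log2 change 1.68, SE 0.19, limma adjusted p = 3e-07). Runx3, which acts with Runx2 in cartilage maturation, was at 29.1, 30.3, 23.4 and 26.8 FPKM against 11.9, 13.98, 15.02 and 11.7 (log2 change 1.01, SE 0.14, limma adjusted p = 2.9e-06), whereas Runx2 itself did not pass (log2 change -0.15, SE 0.17, limma adjusted p = 0.58).

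In the growth plate circuit, the ligand and receptors moved unevenly. Ihh, the hedgehog ligand of prehypertrophic chondrocytes, was at 133, 146, 126 and 124 FPKM in the vertebral and 26.6, 22.4, 25.9 and 35.3 in the long bone libraries (log2 change 2.24, SE 0.20, limma adjusted p = 5.6e-09). Pth1r, the receptor of PTHrP, was at 873, 974, 794 and 785 FPKM in vertebral and 321, 326, 266 and 262 in long bone libraries (log2 change 1.54, SE 0.11, limma adjusted p = 1.5e-10). Its ligand gene Pthlh did not pass the test, at 15.2, 10.9, 12.1 and 17.1 against 14.5, 14.9, 22.003 and 19.1 FPKM (log2 change -0.33, SE 0.16, limma adjusted p = 0.18). The ligand of 1 arm and the receptor of the other thus rose, each with no overlap. Ptch1, the hedgehog receptor and a target of the pathway, was at 46.2, 53.9, 47.98 and 48.8 FPKM in vertebral and 19.5, 22.6, 32.1 and 30.9 in long bone libraries (log2 change 0.91, SE 0.18, limma adjusted p = 0.00039). Hhip, which binds hedgehog ligand and is also a target, was at 47.6, 48.2, 46.8 and 41.9 FPKM against 10.7, 14.4, 19.8 and 21.9 (log2 change 1.46, SE 0.17, limma adjusted p = 2.6e-07). Gli1, a transcriptional target of the pathway, did not pass (log2 change 0.03, SE 0.16, limma adjusted p = 0.91). The coreceptor genes Gas1 and Boc were lower in vertebral cells: Gas1 was at 64.6, 84.1, 97.98 and 82.7 FPKM against 234, 261, 324 and 353 (log2 change -1.82, SE 0.18, limma adjusted p = 3.4e-08), and Boc fell by 1.48 on the log2 scale (limma adjusted p = 1.8e-07). Over the hedgehog and PTHrP list, 4 of 16 genes were higher and 3 were lower.

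Genes of hypertrophic chondrocytes were divided, with 9 of 20 higher and 6 lower (3 with only long bone libraries 3 and 4) and a median log2 change of 0.01. Arsi, a sulfatase gene, was at 164.8, 153, 155 and 160.8 FPKM in vertebral and 35.6, 35.8, 42.05 and 37.2 in long bone libraries (log2 change 2.05, SE 0.13, limma adjusted p = 9e-12). Col10a1, the collagen of hypertrophic cartilage, was at 134, 82.9, 142 and 129 FPKM in vertebral and 257, 327, 342 and 264 in long bone libraries (log2 change -1.30, SE 0.33, limma adjusted p = 0.0053). Tnfrsf11b, the osteoclast inhibitor osteoprotegerin, had a mean of 51.2 ± 5.61 FPKM in vertebral and 24.7 ± 4.16 in long bone cells (log2 change 1.03, SE 0.15, limma adjusted p = 1.2e-05). Prehypertrophic Ihh and Pth1r were thus higher in the same libraries in which Col10a1 was lower.

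Of the osteoblast genes, more were lower than higher in vertebral cells. Of 27 osteoblast and osteocyte genes described, 14 were lower and 6 were higher, with a median log2 change of -0.55. Col1a1 was at 2869, 2069.7, 2221 and 2453 FPKM in the vertebral and 16583, 20029, 8437 and 8212 in the long bone libraries (log2 change -2.37, SE 0.22, limma adjusted p = 7.7e-09). Long bone libraries 1 and 2 were about at the same level, and libraries 3 and 4 were lower, yet all 4 lay above the vertebral range. Ibsp, bone sialoprotein, was at 472, 433, 442 and 369 FPKM in vertebral and 1511, 1403, 879 and 825 in long bone libraries (log2 change -1.38, SE 0.17, limma adjusted p = 5.5e-07). Ifitm5, an osteoblast membrane protein, was at 39.4, 26.7, 35.98 and 51.3 against 281, 282, 128 and 131 (log2 change -2.32, SE 0.28, limma adjusted p = 4.2e-07). The transcription factor genes of osteoblasts did not follow their matrix targets: Runx2 did not pass, and Sp7 was at 65.7, 72.02, 56.9 and 57.4 FPKM in vertebral and 73.3, 80.5, 49.3 and 46.03 in long bone libraries (log2 change 0.05, SE 0.20, limma adjusted p = 0.9). The count of lower genes was 12 with only long bone libraries 3 and 4 and 13 with only 1 and 2, and that of higher genes was 3 and 4.

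**Figure D4:**
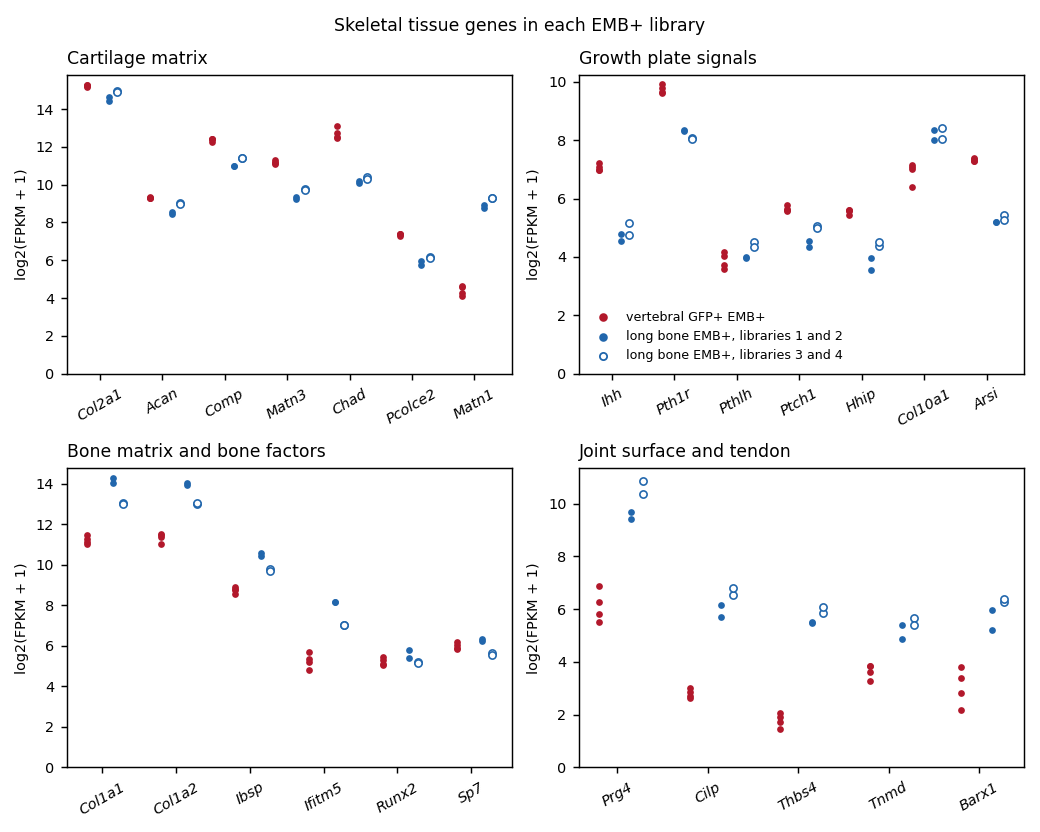
Level on the log2(FPKM + 1) scale of genes of cartilage matrix, growth plate signalling, bone and joint surface in each library: vertebral GFP+ EMB+ (red), long bone EMB+ libraries 1 and 2 (filled blue) and 3 and 4 (open blue). Ihh, Pth1r and Chad lie higher in red and Matn1, Col1a1, Prg4 and Thbs4 higher in blue, while Sp7 and Runx2 overlap; the open and filled blue points separate for Col1a1 and Ibsp.

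Several genes of the joint surface and of tendon were lower in vertebral cells, while the tendon list as a whole was divided. Prg4, lubricin, the lubricating proteoglycan of articular cartilage, was at 44.9, 54.9, 75.7 and 116 FPKM in the vertebral and 686, 823, 1329 and 1872 in the long bone libraries (log2 change -3.98, SE 0.39, limma adjusted p = 3.5e-08). Cilp, a cartilage intermediate layer protein, was at 5.58, 6.16, 5.12 and 7.01 FPKM in vertebral and 51.2, 69.6, 92.6 and 112 in long bone libraries (log2 change -3.51, SE 0.27, limma adjusted p = 3.4e-10). Thbs4, a thrombospondin of tendon, was at 2.79, 2.30, 1.74 and 3.21 FPKM in vertebral and 43.7, 44.9, 56.5 and 66.95 in long bone libraries (log2 change -3.94, SE 0.17, limma adjusted p = 5.9e-15). None of the 3 overlapped between the groups, which the rule for the largest changes required, although Prg4 varied by library within each. Barx1, a homeobox gene of joints and face, was at 6.02, 3.52, 9.34 and 13.03 FPKM in vertebral and 61.2, 36.1, 75.2 and 82.96 in long bone libraries (log2 change -2.91, SE 0.35, limma adjusted p = 5.7e-07). Tnmd, tenomodulin, was at 8.73, 13.3, 13.4 and 11.1 FPKM against 27.9, 41.6, 49.1 and 41.1 (log2 change -1.68, SE 0.21, limma adjusted p = 8.5e-07). Of 14 tendon and ligament genes described, 7 were lower and 4 were higher (median log2 change -0.17), Comp among the higher. The summed level of the list was 10479 to 11473 FPKM in vertebral against 6335 to 8284 in long bone libraries. Comp, described above as a cartilage matrix gene, holds a large part of this sum, so the sum does not describe the list as a whole. Col14a1, a fibril-associated collagen of tendon and skin, was at 4.90, 4.74, 5.51 and 6.46 FPKM against 22.1, 20.3, 32.8 and 35.6 (log2 change -2.13, SE 0.19, limma adjusted p = 3.8e-09), and of 15 fibroblast and periosteum genes 7 were lower and 1, Col6a3, was higher. Over 32 collagen chains 16 were lower and 11 were higher. The higher count fell to 6 under quantile normalization and to 4 with only long bone libraries 3 and 4. The part of fibroblasts and tendon cells in the matrix differences was not tested.

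Among BMP pathway genes, the extracellular modulators changed most. Chrdl1, a chordin-like antagonist that binds BMP4, was at 61.3, 73.6, 54.6 and 52.7 FPKM in vertebral and 5.50, 7.68, 11.5 and 12.1 in long bone libraries (log2 change 2.64, SE 0.26, limma adjusted p = 1.7e-08). Smoc1, a matrix protein that acts on BMP signalling, was at 1.38, 1.62, 3.54 and 3.88 FPKM in vertebral and 36.8, 47.9, 56.1 and 76.5 in long bone libraries (log2 change -3.96, SE 0.24, limma adjusted p = 3.1e-12). Its relative Smoc2 was at 60.2, 60.7, 66.3 and 78.1 against 225, 233, 301 and 286 (log2 change -1.96, SE 0.15, limma adjusted p = 2.4e-10). Chrdl1 and the Smoc genes thus went in opposite directions, each with no overlap. The ligand gene Bmp4 was at 1.14, 1.03, 1.76 and 1.81 FPKM in vertebral and 7.26, 8.63, 8.34 and 7.25 in long bone libraries (log2 change -1.88, SE 0.17, limma adjusted p = 4.9e-09), and the antagonist Fst fell by 1.52 on the log2 scale (limma adjusted p = 1.6e-08). Of 37 BMP pathway genes, 7 were higher and 12 were lower (median log2 change 0.04), and 4 were higher with only long bone libraries 3 and 4. Fst reached an FPKM of 1 in no vertebral library, so the rule fixed its direction. Of the 35 BMP pathway genes that reached it at both sites, 6 were higher and 11 were lower.

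Wnt pathway genes showed a similar division, with 9 of 36 higher and 10 lower and a median log2 change of -0.08 (5 higher with only long bone libraries 3 and 4). Notum, a secreted enzyme that inactivates Wnt proteins, was at 163.9, 203, 166.8 and 170.7 FPKM in the vertebral and 34.1, 45.04, 40.5 and 34.3 in the long bone libraries (log2 change 2.17, SE 0.14, limma adjusted p = 2e-11). The secreted antagonist genes Sfrp1 and Sfrp2 were lower in vertebral cells. Sfrp1 was at 1.25, 1.09, 2.21 and 2.22 FPKM against 12.4, 12.5, 20.4 and 20.2 (log2 change -2.68, SE 0.18, limma adjusted p = 2.6e-11). Sfrp2 was at 1.96, 0.931, 1.45 and 1.39 against 15.6, 13.7, 19.7 and 21.1 (log2 change -2.93, SE 0.23, limma adjusted p = 6.4e-10). The agonist gene Rspo3 was at 14.3, 13.3, 14.3 and 13.8 FPKM in vertebral and 4.92, 3.65, 6.53 and 4.76 in long bone libraries (log2 change 1.35, SE 0.16, limma adjusted p = 5.7e-07), and Rspo4 rose by 1.78 on the log2 scale (limma adjusted p = 1.6e-09). Secreted inhibitors therefore changed in both directions. Rspo4 reached an FPKM of 1 in no long bone library, so the rule fixed its direction and nothing is read from it. Of the 35 Wnt pathway genes that reached it at both sites, 8 were higher and 10 were lower.

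The Notch and IGF lists held more genes lower than higher in vertebral cells. Of 11 Notch pathway genes 5 were lower in vertebral cells and 0 were higher (median log2 change -0.49). Dlk1, a noncanonical ligand and an imprinted gene, was at 336, 281, 330.4 and 412 FPKM in vertebral and 1166, 888, 1387 and 1346 in long bone libraries (log2 change -1.81, SE 0.17, limma adjusted p = 6.9e-09), with GFP- vertebral cells between them at a mean of 595 ± 67.7. Hey1, a Notch target, was at 1.91, 2.15, 1.20 and 1.82 FPKM against 5.56, 6.45, 5.22 and 4.85 (log2 change -1.24, SE 0.15, limma adjusted p = 3.8e-07), and the receptor gene Notch1 (log2 change -1.001, SE 0.20, limma adjusted p = 0.00057) and the ligand gene Jag1 (log2 change -0.79, SE 0.18, limma adjusted p = 0.0015) fell as well. Notch1 reached an FPKM of 1 in no vertebral library, so the rule fixed its direction. Of the other 10 Notch pathway genes 4 were lower and 0 were higher. In the IGF and growth hormone pathway 9 of 21 genes were lower and 3 were higher, 1 with only long bone libraries 3 and 4 (median log2 change -0.43). Igfbp5, an IGF binding protein, was at 6.26, 5.24, 6.62 and 7.70 FPKM in the vertebral and 35.5, 46.5, 50.5 and 51.4 in the long bone libraries (log2 change -2.65, SE 0.22, limma adjusted p = 1.1e-09), and Igfbp4 (log2 change -1.74, SE 0.18, limma adjusted p = 5.3e-08) and Igfbp3 (log2 change -1.47, SE 0.26, limma adjusted p = 0.00011) fell too. Of 21 TGF-beta pathway genes 3 were higher and 5 were lower. With only long bone libraries 3 and 4 these counts were 1 and 3, with only 1 and 2 they were 4 and 3, and under quantile normalization 2 were lower. The latent TGF-beta binding protein genes split there, with Ltbp2 higher (log2 change 1.46, SE 0.19, limma adjusted p = 2.2e-06) and Ltbp1 lower (log2 change -1.30, SE 0.22, limma adjusted p = 6.6e-05). Of 19 FGF pathway genes 2 were higher, Fgf1 (log2 change 1.10, SE 0.21, limma adjusted p = 0.00026) and the growth plate receptor gene Fgfr3, and 3 were lower, among them the feedback inhibitor genes Dusp6 (log2 change -1.02, SE 0.16, limma adjusted p = 1.9e-05) and Spry1 (log2 change -1.35, SE 0.22, limma adjusted p = 4.3e-05). The FGF counts lie near the shares over all genes tested, and 6 were lower with only long bone libraries 3 and 4. The call of Fgfr3 (log2 change 0.57, SE 0.20, limma adjusted p = 0.038) was lost in 9 of 33 alternatives, with log2 changes of 0.35 to 0.59. These were no filter, leaving out the libraries with conflicting labels, any 1 vertebral library or long bone library 1 or 2, and only long bone libraries 3 and 4 (log2 change 0.35, limma adjusted p = 0.4).

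Genes of marrow stroma were more often lower than higher in vertebral cells, with 12 of 22 lower and 2 higher (0 with only long bone libraries 3 and 4) and a median log2 change of -0.55. Cxcl12, the chemokine that holds blood stem cells in the marrow, was at 35.5, 34.6, 45.7 and 39.2 FPKM in the vertebral and 148, 198, 167.3 and 112 in the long bone libraries (log2 change -1.96, SE 0.21, limma adjusted p = 8.3e-08). Vcam1, an adhesion molecule of stroma, was at 3.42, 3.22, 3.58 and 1.67 FPKM in vertebral and 17.6, 17.5, 18.9 and 12.5 in long bone libraries (log2 change -2.17, SE 0.21, limma adjusted p = 2.3e-08). Ctsk, cathepsin K, a collagenase of osteoclasts and of periosteal progenitors, was at 35.8, 29.9, 32.7 and 33.99 FPKM against 101, 97.9, 77.3 and 81.4 (log2 change -1.40, SE 0.12, limma adjusted p = 2.7e-09). In these 3 genes every long bone library lay above every vertebral one, and Kitl, the ligand of KIT, fell as well (log2 change -1.53, SE 0.20, limma adjusted p = 1.5e-06). Kitl reached an FPKM of 1 in no vertebral library, so the rule fixed its direction. Of the other 21 marrow stroma genes 11 were lower and 2 were higher.

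The list of secreted factors linked to vertebral stem cells and tumour tropism was drawn with the study's subject known, so its direction is not independent evidence. Of its 16 genes 3 were higher and 8 were lower. Mfge8, a bridging protein between integrins and phospholipid, was at 2724, 2845, 2539.9 and 2527 FPKM in vertebral and 1177, 1019.7, 1463 and 1569 in long bone libraries (log2 change 1.04, SE 0.16, limma adjusted p = 1.5e-05). GFP- vertebral EMB+ cells had a mean of 2716 ± 137 FPKM, close to that of the GFP+ cells. Gas6, a ligand of the TAM receptors, was at 12.1, 11.1, 10.5 and 10.1 FPKM against 40.3, 44.5, 53.9 and 54.5 (log2 change -2.04, SE 0.12, limma adjusted p = 2.2e-12). Postn, periostin, was at 19.3, 15.4, 22.3 and 17.05 against 67.5, 109, 88.8 and 91.4 (log2 change -2.20, SE 0.23, limma adjusted p = 8e-08). Of 44 axon guidance genes 19 were lower and 7 were higher. The receptor gene Epha3 was at 10.97, 11.9, 10.3 and 11.2 FPKM in vertebral and 2.76, 2.72, 2.80 and 2.22 in long bone libraries (log2 change 1.74, SE 0.20, limma adjusted p = 2.1e-07), Epha4 rose with it (log2 change 1.62, SE 0.16, limma adjusted p = 3.4e-08), and the ligand gene Slit3 was at 2.93, 2.04, 3.84 and 3.02 against 16.3, 20.3, 10.2 and 9.88 (log2 change -1.90, SE 0.22, limma adjusted p = 2.2e-07). Of 24 metalloproteinase and inhibitor genes 12 were lower and 4 were higher (1 with only long bone libraries 3 and 4). The lower genes included Adamts2, which trims the ends of procollagen (log2 change -1.75, SE 0.19, limma adjusted p = 1.3e-07), and Mmp14, a membrane collagenase (log2 change -0.75, SE 0.11, limma adjusted p = 5.9e-06). Of 41 genes that build or sulfate glycosaminoglycans 9 were higher (4 with only long bone libraries 3 and 4) and 11 were lower (6 with only 1 and 2). The heparan sulfate enzyme gene Hs3st3a1 was at 34.3, 40.9, 29.01 and 26.3 FPKM in vertebral and 5.89, 7.32, 7.10 and 8.04 in long bone libraries (log2 change 2.04, SE 0.16, limma adjusted p = 7.8e-10). Hs6st2, which sulfates another position of that chain, fell (log2 change -2.47, SE 0.27, limma adjusted p = 1.5e-07).

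Cell cycle genes were low at both sites and leaned towards vertebral cells. Of 31 genes of mitosis and G2/M phase 13 were higher in vertebral cells and 0 were lower, and of 31 genes of DNA replication 9 were higher and 0 were lower (median log2 changes 0.58 and 0.43). Top2a, a topoisomerase of dividing cells, was at 15.998, 16.2, 16.4 and 14.9 FPKM in vertebral and 4.15, 6.47, 6.04 and 8.39 in long bone libraries (log2 change 1.25, SE 0.21, limma adjusted p = 6.3e-05). Mcm10, a replication factor, was at 4.33, 4.50, 3.90 and 2.79 against 0.934, 1.47, 2.01 and 0.973 (log2 change 1.07, SE 0.20, limma adjusted p = 0.00027). Mki67 did not pass, at 2.43, 1.89, 2.70 and 1.86 FPKM against 1.35, 1.36, 1.81 and 2.03 (log2 change 0.29, SE 0.21, limma adjusted p = 0.38). The counts depended on the fit: a fit of the 8 libraries alone called 24 and 17 genes higher, and only long bone libraries 3 and 4 left 3 and 7.

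Immediate early and dissociation stress genes were higher in vertebral cells in 18 of 30 cases and lower in 1, with a median log2 change of 0.65. Dusp1, a phosphatase induced by stress, was at 994, 1072, 863 and 794 FPKM in the vertebral and 216, 208, 282 and 266 in the long bone libraries (log2 change 1.94, SE 0.13, limma adjusted p = 1.6e-11). Socs3, a feedback inhibitor of cytokine signalling, was at 507, 622, 529 and 503 FPKM in vertebral and 181.5, 220.1, 209 and 214 in long bone libraries (log2 change 1.38, SE 0.11, limma adjusted p = 5.8e-10). Fos, the founding immediate early gene, was at 3191, 3656, 3292 and 3360.1 FPKM against 1715, 1928, 2459 and 2313 (log2 change 0.69, SE 0.13, limma adjusted p = 0.00019). The summed level of the list was 16339.5 to 18748 FPKM in vertebral and 8446 to 11367 in long bone libraries, with no overlap. These genes answer to tissue dissociation as well as to signals in the tissue, they moved with the comparison, and their part in the other results was not tested.

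Genes of metabolism differed from list to list. Of 37 glycolysis and hypoxia genes 10 were lower in vertebral cells and 4 were higher (1 with only long bone libraries 3 and 4). Car9, a carbonic anhydrase induced by low oxygen, was at 0.688, 0.694, 1.13 and 0.487 FPKM in vertebral and 4.16, 2.40, 4.93 and 5.40 in long bone libraries (log2 change -1.55, SE 0.21, limma adjusted p = 2.4e-06). Vegfa, the vascular growth factor, was at 15.2, 9.71, 10.1 and 10.1 against 21.2, 18.6, 27.4 and 29.2 (log2 change -1.03, SE 0.16, limma adjusted p = 2.8e-05). Of 48 oxidative phosphorylation genes and 74 cytosolic ribosomal protein genes, limma called 1 each, Atp5g3 (log2 change -0.55, SE 0.17, limma adjusted p = 0.021) and Rps23 (log2 change -0.51, SE 0.18, limma adjusted p = 0.046). The call of Atp5g3 was lost in 4 of 33 alternatives: without vertebral library 2, without long bone library 1, and with only long bone libraries 1 and 2 or only 3 and 4 (log2 change -0.56 to -0.48). That of Rps23 was lost in 15, among them leaving out vertebral library 1 or 2 or any 1 long bone library, either pair of long bone libraries, no filter, and leaving out some libraries outside the comparison (log2 change -0.58 to -0.41). In the fit of the 8 libraries alone, 19 and 14 genes of these lists were lower. Of 20 cholesterol synthesis genes 6 were higher, led by Msmo1 (log2 change 0.43, SE 0.11, limma adjusted p = 0.005), and 0 remained higher with only long bone libraries 3 and 4.

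**Figure D5:**
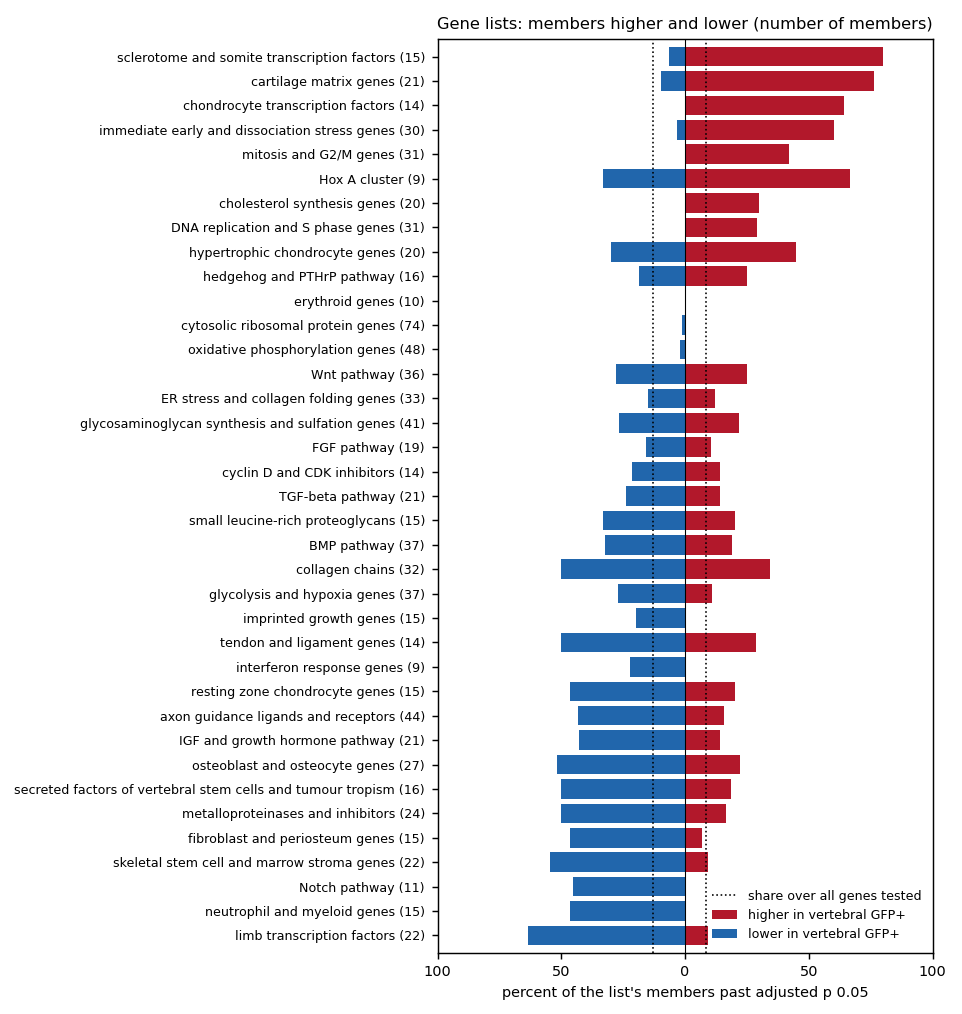
Percent of the genes of each list (number of genes described in parentheses, lists of at least 9) that were higher (red, to the right) or lower (blue, to the left) in vertebral GFP+ cells at a limma adjusted p under 0.05; dotted lines mark the shares over all genes tested, 8.64% and 12.9%. The sclerotome, cartilage matrix, Hoxa, chondrocyte factor and immediate early lists reach farthest to the right, and the limb, marrow stroma and osteoblast lists reach far to the left. Of these lists, 6 sclerotome, 8 limb, 3 Hoxa, 1 chondrocyte factor and 1 marrow stroma gene reached an FPKM of 1 at 1 site only.

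Markers of other cell types were mostly low, and some moved with the comparison. Of 18 neutrophil and myeloid genes measured, 15 reached the level needed, and 7 were lower in vertebral cells (11 with only long bone libraries 1 and 2) and 0 were higher. Their summed level was 21.4 to 264 FPKM in vertebral and 140.4 to 1000.0 in long bone libraries, so the ranges overlapped. Mpo, myeloperoxidase, was at 6.24, 3.87, 2.14 and 0.914 FPKM in vertebral and 24.3, 77.00, 28.05 and 10.5 in long bone libraries (log2 change -2.90, SE 0.76, limma adjusted p = 0.0084). Elane, neutrophil elastase, was at 2.92, 0.416, 2.73 and 2.27 against 15.3, 50.4, 15.3 and 3.97 (log2 change -2.49, SE 0.81, limma adjusted p = 0.033). Both were highest in GFP- vertebral EMB+ cells, with means of 131 ± 113 and 73.6 ± 64.7 FPKM. With only long bone libraries 3 and 4, 1 of these genes was lower, and the calls of Mpo (log2 change -2.26, limma adjusted p = 0.12) and Elane (log2 change -1.65, limma adjusted p = 0.32) were lost. That of Elane was also lost at a pseudocount of 0.1 and without vertebral library 2 or 4 or long bone library 1, 2 or 3 (log2 change -2.56 to -1.94 without them).

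Of 17 macrophage and osteoclast genes in the table, 13 had a mean under 1 FPKM in each group, and the list summed to 104 to 118 FPKM in vertebral and 206 to 250.3 in long bone libraries. Its 3 called genes, Ctsk, Mmp9 and Acp5, were lower in vertebral cells, Acp5 not without long bone library 1 (log2 change -0.64) or with only long bone libraries 3 and 4 (log2 change -0.56, limma adjusted p = 0.19). Mmp9 was at 26.7, 15.8, 19.9 and 18.9 FPKM against 93.8, 93.2, 102 and 61.8 (log2 change -2.05, SE 0.36, limma adjusted p = 0.00012). Of 11 adipocyte genes, 6 had a mean under 1 FPKM in each group, and the list summed to 9.75 to 25.9 FPKM in vertebral and 28.2 to 38.4 in long bone libraries. Adipoq, adiponectin, which marrow stroma also expresses, was at 1.62, 1.05, 2.36 and 1.97 against 8.32, 9.21, 8.21 and 6.45 FPKM (log2 change -1.73, SE 0.26, limma adjusted p = 1.5e-05). The adipocyte, macrophage and osteoclast lists thus moved with the marrow stroma genes, and their part in that result was not tested. Ctsk was named above with the marrow stroma genes as well, so these results share a gene. H2-Ab1, an MHC class II gene, was at 2.79, 6.18, 3.55 and 1.85 FPKM in vertebral and 17.7, 18.7, 20.1 and 23.7 in long bone libraries (log2 change -2.27, SE 0.28, limma adjusted p = 7.6e-07), although 10 of the 16 B cell and lymphoid genes in the table had a mean under 1 FPKM in each group. The list did not move with it: of its 7 genes described, 3 were higher in vertebral cells and 1 was lower (median log2 change 0.45). Of the 6 that reached an FPKM of 1 at both sites, 2 were higher and 1 was lower.

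Endothelial and pericyte genes summed to 134 to 155 FPKM in vertebral and 119.7 to 159 in long bone libraries, and 1, the contractile gene Acta2, was lower (log2 change -2.19, SE 0.23, limma adjusted p = 8.4e-08). Of 10 erythroid genes described limma called 0 in either direction (0 at an unadjusted p under 0.05), and Hba-a1 was at 61.8, 113, 166.2 and 149 against 140.4, 163.7, 73.6 and 124 FPKM (log2 change -0.07, SE 0.40, limma adjusted p = 0.93). Of 12 notochord and nucleus pulposus genes measured, 8 had a mean under 1 FPKM in vertebral cells. Foxa2 and Cd24a were higher, Cd24a not with only long bone libraries 3 and 4 (log2 change 0.57, limma adjusted p = 0.084), and Cdh2 (log2 change -2.03, SE 0.31, limma adjusted p = 1.5e-05) and Car3 were lower. Car3, carbonic anhydrase 3, was at 58.9, 37.4, 59.3 and 56.1 FPKM in vertebral GFP+ libraries, 463, 500.4, 213 and 210.1 in long bone libraries and a mean of 391 ± 89.00 in GFP- vertebral cells. Ifitm3, an interferon-induced membrane protein, was at 18.2, 15.5, 25.9 and 16.3 FPKM in vertebral and 133, 142, 119.5 and 114 in long bone libraries (log2 change -2.70, SE 0.23, limma adjusted p = 2.3e-09). Of 9 interferon response genes 2 were lower and 0 were higher.

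The same contrast was also made in EMB- cells of the 2 sources, which share no library with the EMB+ cells. There 5623 of 11768 genes differed between vertebral GFP+ and long bone cells (47.8%). Among positional genes the 2 changes were close for some and apart for others. For Pax1 the log2 change was 4.85 in EMB- and 4.89 in EMB+ cells, for Hoxb7 it was 3.99 and 4.20, for Shox2 -5.21 and -5.41, and for Tbx4 -2.79 and -2.96. The difference of the 2 changes was 0.04 for Pax1, 0.21 for Hoxb7, -0.20 for Shox2 and -0.17 for Tbx4, with SEs of 0.21, 0.22, 0.21 and 0.23; none passed (limma adjusted p = 0.92, 0.52, 0.52 and 0.63). The difference passed the test under the deposited and both other scalings for 9 other positional genes. It was 1.57 for Zic4, 1.44 for Nkx6-1, 1.39 for Uncx, 1.37 for En1, 1.33 for Prrx2 and 1.23 for Tbx1. It was negative at -1.07 for Pax9, -1.18 for Tbx5 and -2.46 for Foxf2. Across the 10845 genes described, the 2 sets of log2 changes had a Pearson's r of 0.319 and a Spearman's rho of 0.321, values that describe genes of shared length and fit, and not replicates.

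The difference between the 2 changes passed the test in 3594 genes (30.5%), with 2938 in which the EMB+ change was the more positive and 656 in which it was the more negative. This balance rests on the scaling: quantile normalization gave 1496 and 1694, and median-ratio scaling gave 1647 and 1213, and the median over all genes was 0.23 on the log2 scale. Long bone EMB- libraries also carried erythroid RNA, with a mean Hba-a1 of 11431 ± 3802 FPKM against 201 ± 88.4 in vertebral EMB- cells, and its part in these differences was not tested. Msmp had the most negative value, at -9.51 (limma adjusted p = 6.1e-13), since its log2 change was -6.10 in EMB+ and 3.42 in EMB- cells. Cilp, Smoc1, Barx1 and Gas1 were lower in vertebral than in long bone EMB+ cells. Their log2 changes in EMB- cells were 0.56, -0.38, 0.16 and 1.16, and the differences of the changes were -4.07, -3.59, -3.07 and -2.98 (limma adjusted p = 7.9e-09, 6.6e-09, 2.8e-05 and 2.1e-09). Tnnt3 and Arsi were higher in vertebral EMB+ cells with EMB- log2 changes of -0.16 and -0.74 (differences 2.94 and 2.79, limma adjusted p = 4.7e-07 and 2.1e-11). Pth1r behaved likewise, with a change of 1.54 in EMB+ and -0.19 in EMB- cells (limma adjusted p = 6.1e-09). Foxf2 went the other way within the sclerotome list, with a change of 4.19 in EMB- against 1.73 in EMB+ cells (limma adjusted p = 3.3e-09). The differences of Msmp, Cilp, Smoc1, Barx1, Gas1, Tnnt3, Arsi, Pth1r and Foxf2 kept their calls under both scalings.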

How the data were processed

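Libraries of 24 sorted cell samples came from SMART-Seq v4 cDNA and Nextera XT preparation, per the labels' protocols, a chemistry that does not mark strand. A gene on the opposite strand shares 32.9% of the exon bases of Hs3st3a1, 29.4% of those of Notum and 24.4% of those of Spry1. A gene on the same strand shares 29.7% of those of Ifitm5. Such overlaps also touch other named genes, and the source of reads from shared bases is uncertain. Tools named in the submitters' processing notes are bcl2fastq 2.19, STAR 2.5.2 and Cufflinks 2.1.1, with GRCm38 as the genome build. The authors deposited FPKM values, and the file header and its biotype column show protein-coding genes alone. FPKM hides the read depth, which is unknown here, and abundant genes weigh on the scale of all others. Since the depth behind a value of exactly 0 is unknown, such a gene is said to be listed at 0. Repeats of an identifier or symbol and 3 genes with failed estimates were left out of 22053 entries.

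The 11768 genes that reached an FPKM of 1 in 4 or more of the 24 libraries were tested with limma 3.58.1 (R 4.3.3) on log2(FPKM + 1). One model held all 6 groups, with 18 residual degrees of freedom, trended and robust moderation, two-sided tests and Benjamini-Hochberg adjustment at 0.05 over every gene tested. Fold changes on this scale understate those of low genes, and for genes listed at 0 in a group no fold is given. The fit was checked on simulated normal values, drawn independently for each library. These held no pairs of libraries, so the check does not bear on the pairs seen in long bone. Groups came from the titles, and for vertebral GFP- EMB+ cells from the cell type labels. Long bone EMB+ titles all carry replicate number 1, so their numbers 1 to 4 are only names.

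The naming rule took the sort genes, members of the Hox, limb and sclerotome lists, up to 5 genes of each other list by smallest adjusted p, a few defining genes, and 15 genes per direction. These 15 had the largest called changes without overlap of the groups at a mean FPKM of at least 5 in the higher group, with predicted genes left out. Lack of overlap in these genes was thus required by the choice and is not a result. For the difference of the EMB+ and EMB- changes the naming rule took 6 per direction in a similar way, without the overlap condition. The genes and lists were chosen with earlier results of these data known. Alternatives were pseudocounts of 0.1 and 5, no filter, a filter at FPKM 5, a test of only the genes described, quantile normalization, median-ratio scaling, models restricted to the groups in the comparison, weighted libraries, a block by replicate number, leaving out the libraries with conflicting labels, and leaving out in turn each of the 20 libraries of the groups compared, so not the vertebral GFP- EMB- libraries. A comparison with long bone libraries 1 and 2 only, or 3 and 4 only, was added after seeing the data.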

Additional observations from a re-analysis of the deposited data

Results flagged for a closer look

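In each group of 4 libraries, the highest and lowest value of each named gene were set against the other 3 on the log2(FPKM + 1) scale, and 21 of 308 gene and group pairs had a library farther from the rest than Dixon's 95% critical value for 4 values. Chance flags about 1 in 20 groups of normally distributed values, a share that does not hold for values at or near 0. Where 3 of 4 libraries are listed at 0, as for En1 in long bone, any other value is flagged. In vertebral GFP+ EMB+ cells the lowest library stood apart for Car3 at 37.4, Eng at 1.07, Rgp1 at 1.01, Slc6a12 at 21.6 and Vcam1 at 1.67 FPKM. In vertebral GFP+ EMB+ cells the highest library stood apart for En1 at 2.46, Jag1 at 1.49, Kitl at 0.603, Thy1 at 0.0274 and Vegfa at 15.2 FPKM. In long bone EMB+ cells the highest library stood apart for En1 at 0.0301, Hoxa11 at 13.8, Hoxa2 at 0.418, Hoxb7 at 0.285, Tbx1 at 0.167 and Thy1 at 0.0234 FPKM. In long bone EMB+ cells the lowest library stood apart for Epha3 at 2.22, Fxyd2 at 14.3, Msmp at 433, Ptprc at 0 and Syt8 at 3.46 FPKM. The lowest long bone value of Msmp still lay above every vertebral value.

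The vertebral GFP+ minus long bone change in EMB+ cells differed from that in EMB- cells in 79 named genes by the limma test of the difference itself, and in 2938 genes (positive) and 656 genes (negative) in all. Of the named genes, 67 kept the call under both quantile normalization and median-ratio scaling, and the median over all genes was 0.23. The values below are differences of log2 changes, EMB+ minus EMB-. Among positional factors the positive values were 0.67 for Zic1, 1.57 for Zic4, 1.39 for Uncx, 1.23 for Tbx1, 1.44 for Nkx6-1, 1.37 for En1, 0.61 for Prrx1 and 1.33 for Prrx2. Among positional factors the negative values were -1.07 for Pax9, -2.46 for Foxf2 and -1.18 for Tbx5. Among cartilage and growth plate genes the positive values were 0.56 for Acan, 1.08 for Chad, 0.95 for Matn3, 1.44 for Matn1, 2.36 for Foxa2, 1.71 for Foxa3, 1.25 for Runx3, 1.15 for Ihh, 1.74 for Pth1r, 1.31 for Ptch1, 0.97 for Hhip, 2.79 for Arsi, 1.43 for Col10a1 and 0.73 for Fgfr3. Among cartilage and growth plate genes the negative values were -2.98 for Gas1 and -1.15 for Boc. Among bone, tendon and fibroblast genes the positive values were 1.37 for Omd. Among bone, tendon and fibroblast genes the negative values were -1.51 for Col1a1, -1.63 for Col1a2, -1.35 for Ifitm5, -2.75 for Prg4, -4.07 for Cilp, -2.49 for Thbs4, -3.07 for Barx1, -1.60 for Tnmd, -1.88 for Col14a1, -1.68 for Postn, -1.24 for Cdh2 and -0.89 for Acta2. Among signalling genes the positive values were 1.36 for Chrdl1, 0.78 for Notum, 1.61 for Rspo3 and 1.39 for Rspo4. Among signalling genes the negative values were -3.59 for Smoc1, -1.07 for Smoc2, -1.13 for Sfrp1, -0.94 for Dlk1, -0.71 for Hey1, -2.08 for Gas6, -2.70 for Stc1 and -1.90 for Gal. Among cell cycle and blood genes the positive values were 3.60 for Mki67, 4.80 for Top2a, 3.16 for Mcm10 and 5.82 for Hba-a1. Positive values of other named genes were 2.41 for Acp5, 1.10 for Adipoq, 3.13 for Cd24a, 0.99 for Emb, 1.86 for Epha4, 2.193 for F5, 2.03 for Fgf1, 1.27 for Ltbp2, 0.96 for Msmo1, 2.56 for Serpina1d, 0.84 for Slc6a12, 1.36 for Syt8 and 2.94 for Tnnt3. Negative values of other named genes were -0.82 for Adamts2, -1.54 for Car3, -2.93 for Car9, -0.60 for Fst, -2.21 for H2-Ab1, -1.04 for Igfbp4, -1.55 for Ltbp1, -9.51 for Msmp, -1.42 for Rpl39l and -0.72 for Vegfa. The calls of Acan, Adipoq, Col10a1, Fgfr3, Hhip, Ihh, Matn3, Notum, Prrx1, Slc6a12, Syt8 and Zic1 were lost under at least 1 of the 2 scalings. Long bone EMB- libraries had means of 11431 FPKM for Hba-a1 and 37.3 for Top2a, against 201 and 2.13 in vertebral GFP+ EMB- libraries. The part of erythroid RNA and of dividing cells in these differences was not tested.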

How the results depend on the processing

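Of 150 named genes with a test, 135 kept their call in every one of 33 alternatives that tested them, 15 did not in at least 1, and 0 reversed. The filter at FPKM 5 tested only 130 of the 150, and the other 32 alternatives tested all. Genes higher in vertebral cells numbered 520 with long bone libraries 3 and 4 only, a setting with fewer samples that was added after seeing the data, and genes lower numbered 990 with the filter at FPKM 5, which tests fewer genes. The difference of the EMB+ and EMB- changes was positive in 1496 genes under quantile normalization and 1647 under median-ratio scaling, and negative in 1694 and 1213. GFP+ against GFP- EMB+ cells gave 136 genes with the filter at FPKM 5, 151 with only the genes described and 451 with library weights. For these last 2 comparisons the cause was not tested. With each of the 20 libraries of the 5 groups used here left out in turn, the vertebral GFP+ against long bone EMB+ comparison called 2051 to 3325 genes, 778 to 1395 higher and 1259 to 1930 lower. The difference of the changes called 3171 to 4379, GFP- against long bone 1867 to 2794 and the EMB- comparison 5050 to 6030. With the replicate number as a replicate block, 1014 genes were higher and 1506 lower in the vertebral GFP+ against long bone EMB+ comparison. The block gave 4039 genes for the difference of the changes, against 3594 without it. For GFP+ against GFP- EMB+ cells it gave 335, against 247. The numbers of the long bone EMB+ libraries are names only and pair nothing. Library depth, which sets the precision of low values, is unknown.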
